A study of Mus musculus with 12 samples.

Results

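Integrins are adhesion receptors made of 1 alpha and 1 beta chain, each from its own gene, and a B cell uses them to hold on to T cells, to stromal cells and to matrix. The alpha chain largely sets the ligand, the shared beta chain carries the link to the cytoskeleton, and a chain reaches the cell surface only when its partner is made too. Signals from antigen and chemokine receptors switch integrins to a binding state from inside the cell, and bound integrins signal back through Src family kinases and small GTPases. In B cells LFA-1 (Itgal with Itgb2) and VLA-4 (Itga4 with Itgb1) are the best known members and help the cell to form a synapse and to be kept in lymphoid tissue.

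The transcripts of 10 integrin chains (Itgam, Itgax, Itgal, Itgb2, Itga3, Itga4, Itgav, Itgb1, Itgb3 and Itgb7) were followed in activated mouse B cells with both alleles of Ctcf, the gene of a chromatin organiser, floxed for deletion. The members were taken by name from the table of 12699 genes, and all 10 had a row. CTCFfl/fl; AID-CRETG/+ cells (here CTCFfl/fl) were set against CTCFfl/+; AID-CRETG/+ cells (here CTCFfl/+), which also carry the Cre transgene and 1 floxed Ctcf allele. Cre is driven by the AID locus in a BAC transgene together with a human CD2 (hCD2) reporter, so that deletion starts only once a cell expresses AID, and hCD2+ cells were sorted. Splenic B cells from mice of 8 to 12 weeks were grown for 48 h in 2 kinds of culture. In 1 of them they grew beside T cells stimulated with anti-CD3 (5 µg/ml) and anti-CD28 (1 µg/ml). By the paper's methods, the cells added to the CD43- B cells there were CD43+ cells, with no purification of T cells described. The other culture held LPS (50 µg/ml) and IL4 (5 ng/ml). Each of the 4 groups had 3 RNA-seq libraries, each from cells pooled from 2 to 3 mice. The 2 cultures are called CD3/CD28 and LPS/IL4, and the labels state that they were handled as separate batches.

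The libraries held 6934344 to 11227004 recovered reads in CD3/CD28 cultures and 23469188 to 28130440 in LPS/IL4 cultures. Ctcf itself stood at 74.7 ± 2.39 CPM (counts scaled to library size) in CTCFfl/fl cells and 130.3 ± 6.67 CPM in CTCFfl/+ cells of the CD3/CD28 cultures, and at 70.3 ± 7.63 CPM and 141.2 ± 6.01 CPM in CTCFfl/fl and CTCFfl/+ cells of the LPS/IL4 cultures (SD, n = 3 each). The B cell antigen receptor chain Cd79a averaged 961.3 ± 26.2 and 755.9 ± 76.1 CPM in CTCFfl/fl and CTCFfl/+ cells of the CD3/CD28 cultures, and 874.3 ± 124.2 and 906.6 ± 119.1 CPM in CTCFfl/fl and CTCFfl/+ cells of the LPS/IL4 cultures (SD, n = 3 each). Of the genes above 5 CPM in both cultures, 98.9% had culture means within 0.1 on the log2 scale of each other, so no level is compared between cultures, and how that equalisation bears on transcripts of few reads was not tested. Values below are CPM, fold changes are CTCFfl/fl over CTCFfl/+ on the log2(CPM + 0.5) scale with their standard error (SE), and a gene was called at a limma adjusted p under 0.05. With 3 libraries against 3, the smallest p of an exact two-sided permutation test of 1 gene is 0.1. These are bulk libraries, in which fewer cells of a type and less RNA per cell cannot be told apart.

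In CD3/CD28 cultures 6 of the 10 chains passed the test, and 3 did so without CTCFfl/+ replicate 3. Itgam, Itga3, Itgb3, Itga4 and Itgb2 were higher in CTCFfl/fl cells, and Itgb1, the partner of Itga3 and Itga4, was lower. The 5 higher chains compare with 9.88% of all 12070 genes tested, the 1 lower chain with 8.76%, and the 6 together with 18.6%. The median log2 fold change of the 10 chains was 0.38, against 0.0050 for all genes tested. The 10 chains were chosen with earlier results of these data known. Their shares and medians, here and below, are therefore no test of integrins as a group. Of 5 further integrin chains tested in CD3/CD28 cultures, none was called. The 2 genotypes did not overlap for 6 chains, 5 higher and 1 lower (Itgam, Itga3, Itgb2, Itgb3, Itgax and Itgb1), and such separation was seen in 39.6% of all genes tested.

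**Figure D1:**
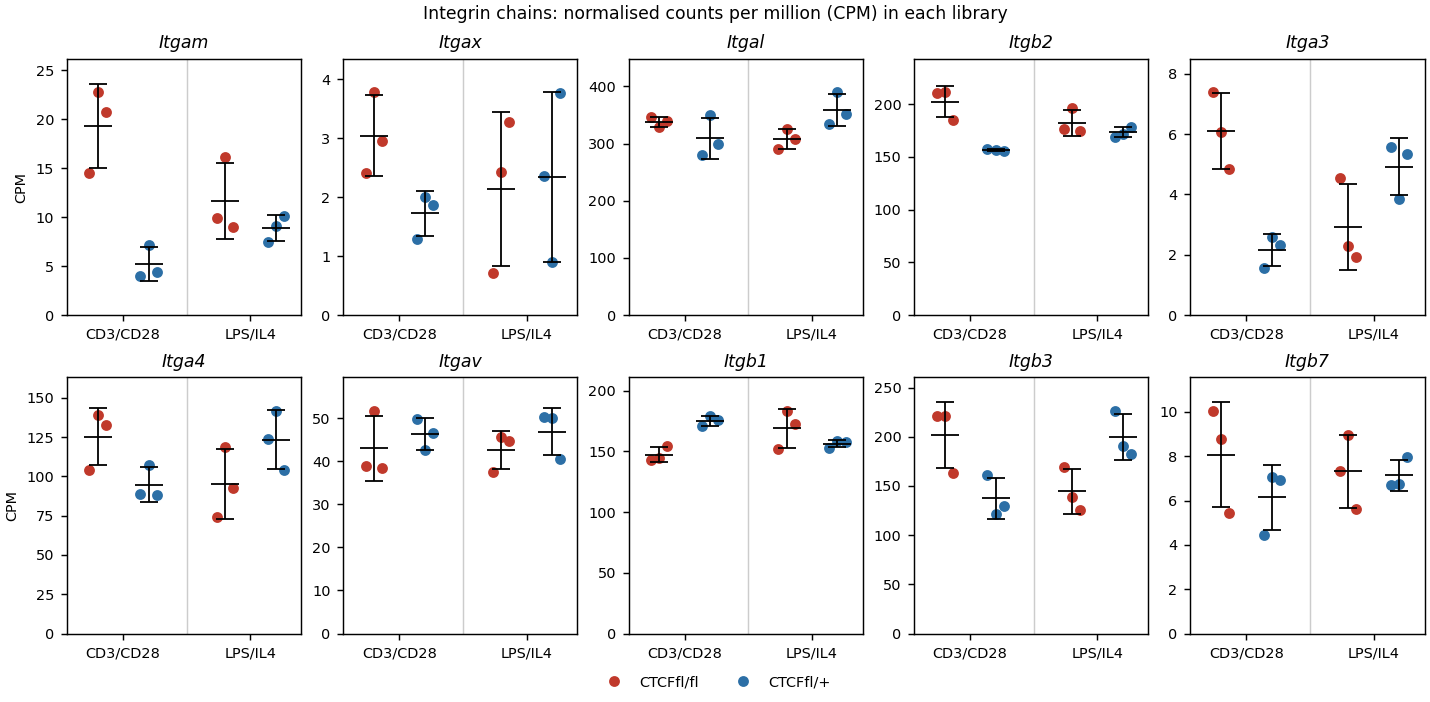
Normalised CPM (vertical axis, linear from 0) of each integrin chain in the 12 libraries, with CTCFfl/fl in red left of CTCFfl/+ in blue within each culture (horizontal axis). Points are libraries, and the black mark and bar are the mean and SD of 3 libraries. Itgam lies between 14.5 and 22.8 CPM in CTCFfl/fl CD3/CD28 libraries, above 4.02 to 7.20 CPM in the CTCFfl/+ ones, while Itgb1 lies below.

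The beta2 family shares the chain Itgb2 (CD18) and is the leukocyte integrin group: Itgal (CD11a) completes LFA-1, which binds ICAMs on T cells, Itgam (CD11b) completes Mac-1, a receptor for the complement fragment iC3b and for fibrinogen, and Itgax (CD11c) completes a further complement receptor best known from dendritic cells. Itgam had 14.5, 22.8 and 20.8 CPM in CTCFfl/fl libraries, against 4.02, 7.20 and 4.40 CPM in CTCFfl/+ libraries. The lowest CTCFfl/fl library was thus above the highest CTCFfl/+ library. The means were 19.3 ± 4.31 and 5.21 ± 1.74 CPM (SD, n = 3 each), a ratio of 3.71 and a log2 fold change of 1.81 (SE 0.22, limma adjusted p = 0.00087), the largest among the chains. Itgb2 had 210.4, 211.1 and 185.2 CPM in CTCFfl/fl libraries, against 157.6, 156.7 and 155.1 CPM in CTCFfl/+ libraries. The CTCFfl/+ libraries lay within an SD of 1.26 CPM, and all CTCFfl/fl libraries were above them (log2 fold change 0.37, SE 0.07, limma adjusted p = 0.0054). Itgax, a transcript of few reads, had 2.40, 3.77 and 2.95 CPM in CTCFfl/fl libraries, from 25 to 31 reads, and 1.29, 2.01 and 1.87 CPM in CTCFfl/+ libraries, from 9 to 20 reads. Its groups were apart as well, but the log2 fold change of 0.67 (95% interval 0.09 to 1.25) did not pass the test (limma adjusted p = 0.099). Itgal, the most abundant alpha chain, had 346.4, 328.9 and 339.2 CPM in CTCFfl/fl libraries, against 280.0, 349.2 and 298.5 CPM in CTCFfl/+ libraries. CTCFfl/+ replicate 2 was the highest of these 6 libraries, and the difference of 0.13 (95% interval -0.04 to 0.31) was not called (limma adjusted p = 0.26).

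Itgam and Itgax are neighbours on mouse chromosome 7 in the same orientation (GRCm38, GENCODE M21: Itgam chr7:128062640-128118491, Itgax chr7:128129547-128150657, both + strand), 11056 bases apart, and Itgal lies 727.5 kb before Itgam. The promoters of Itgam and Itgax, the 250 bases before the RefSeq start (GRCm38.p6, + strand), are shown because these 2 genes are neighbours. Their log2 fold changes in CD3/CD28 cultures were 1.81 and 0.67, and that of Itgax was not called. Whether the 2 changes differ was not tested. Capitals mark GAGGAA, the core recognised by the factor PU.1, on either strand. Itgam is at chr7:128062390-128062639 and Itgax at chr7:128129300-128129549.
Itgam: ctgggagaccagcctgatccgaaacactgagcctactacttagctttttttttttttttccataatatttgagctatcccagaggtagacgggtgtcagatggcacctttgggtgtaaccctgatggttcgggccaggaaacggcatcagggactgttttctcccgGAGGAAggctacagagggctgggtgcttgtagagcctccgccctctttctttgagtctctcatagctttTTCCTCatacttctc
Itgax: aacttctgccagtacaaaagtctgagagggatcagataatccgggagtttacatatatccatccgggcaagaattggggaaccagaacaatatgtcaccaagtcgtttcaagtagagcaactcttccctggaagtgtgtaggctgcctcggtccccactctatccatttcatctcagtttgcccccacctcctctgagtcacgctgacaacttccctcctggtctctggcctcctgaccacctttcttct
The Itgam window holds 2 matches, starting 84 and 15 bases before the start site, and the Itgax window holds 0. Of 32851 mouse RefSeq promoter windows of this length 23.3% hold at least 1. The motif CCCTC, after which CTCF is named, was counted separately on both strands, occurs at 2 places in each of these windows and is held by 60.5% of all windows. Letters in a window are no record of binding.

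Of the 16 genes tested whose start is within 250 kb of the Itgam start, Itgam and Pycard were called, both higher. Over all genes tested in CD3/CD28 cultures, 18.6% were called. Pycard, the adaptor ASC of inflammasomes, starts 68773 bases before Itgam and averaged 98.0 CPM in CTCFfl/fl and 68.4 CPM in CTCFfl/+ libraries (log2 fold change 0.52, limma adjusted p = 0.0020). In GENCODE M21 the gene Gm49368, which has no row in the table, overlaps Itgam on the same strand, and 65.8% of the 61-base stretches of Itgam transcripts also occur in it. How the quantification split such reads was not tested. Itgax shares 6.64% of its 61-base stretches with Itgad, the next integrin gene 3719 bases on, and Itgad has no row either.

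**Figure D2:**
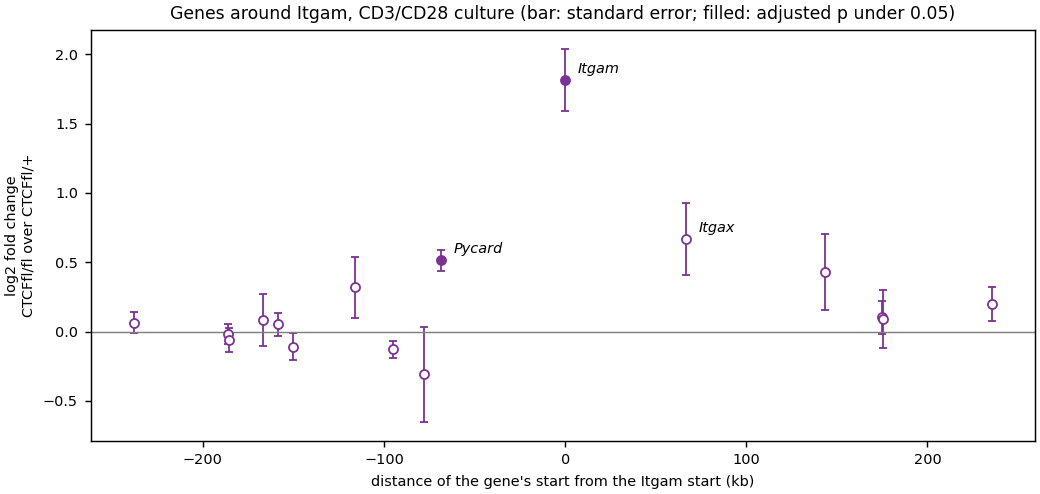
Log2 fold change of CTCFfl/fl over CTCFfl/+ (vertical axis, bars are standard errors) in CD3/CD28 cultures for the 16 tested genes around Itgam, by distance of each start from the Itgam start in kb (horizontal axis). Filled points passed the test. Itgam stands at 1.81, Pycard at 0.52 and Itgax at 0.67.

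The beta1 group pairs Itgb1 (CD29) with many alpha chains, among them Itga4 (CD49d), which gives VLA-4 for VCAM-1 and fibronectin, and Itga3 (CD49c), which gives a laminin receptor. Itga3 had 7.38, 6.08 and 4.84 CPM in CTCFfl/fl libraries, against 1.58, 2.60 and 2.34 CPM in CTCFfl/+ libraries. It rests on 41 to 83 reads in CTCFfl/fl and 11 to 25 reads in CTCFfl/+ libraries. The groups were apart, and the mean was 2.81 times as high in CTCFfl/fl cells (log2 fold change 1.31, SE 0.24, limma adjusted p = 0.0050). Itga4 had 104.4, 138.8 and 133.0 CPM in CTCFfl/fl libraries, against 88.7, 107.6 and 88.2 CPM in CTCFfl/+ libraries. CTCFfl/fl replicate 1 was below CTCFfl/+ replicate 2, so the groups overlapped, and the log2 fold change of 0.40 (SE 0.11) passed the test narrowly (limma adjusted p = 0.034). This call ended in 6 of 16 alternative analyses, among them those without CTCFfl/fl replicate 2 or 3 or CTCFfl/+ replicate 1 or 3 (adjusted p = 0.088 to 0.13).

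Itgb1 went the other way. It had 142.7, 144.3 and 154.3 CPM in CTCFfl/fl libraries, against 171.0, 178.9 and 175.6 CPM in CTCFfl/+ libraries. All CTCFfl/fl libraries were below all CTCFfl/+ libraries, by a small amount: 147.1 ± 6.30 against 175.2 ± 3.97 CPM (SD, n = 3 each), or 84.0% of the CTCFfl/+ level (log2 fold change -0.25, SE 0.06, limma adjusted p = 0.018). Leaving out CTCFfl/+ replicate 1, 2 or 3 ended the call (adjusted p = 0.051, 0.068 and 0.077), with the fold change between -0.24 and -0.27. The promoter of the 1 chain that fell is given for comparison with that of Itgam, from chr8:128685404-128685653 of GRCm38.p6 on the + strand, with the same capitals.
Itgb1: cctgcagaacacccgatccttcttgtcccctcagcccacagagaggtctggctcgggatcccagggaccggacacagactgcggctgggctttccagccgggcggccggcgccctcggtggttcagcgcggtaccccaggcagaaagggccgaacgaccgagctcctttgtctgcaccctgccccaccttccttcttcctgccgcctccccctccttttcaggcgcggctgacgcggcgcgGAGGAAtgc
It has 68.0% G and C, against 49.6% in the Itgam window and 50.0% in the Itgax window (median of all windows 52.4%). It holds 1 PU.1 core, 9 bases before the start site, and 3 matches to CCCTC. Of the higher chains, Itga4 has a window with 64% G and C and 0 PU.1 cores. Itga3, also higher, has windows with 67.6% and 50.8% G and C, holding 0 and 1 cores. Among chains not called, the Itgav window has 64.4% and 2 cores, and the Itgb7 window 56% and 0. The higher chains Itgb2 and Itgb3, and Itgal, which was not called, had no RefSeq promoter entry. Whether these letters bear on the changes was not tested.

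Itgav (CD51) can pair with Itgb1 or Itgb3, and with further beta chains, to bind vitronectin, fibronectin and latent TGF-beta. It had 38.9, 51.7 and 38.3 CPM in CTCFfl/fl libraries, against 49.8, 42.5 and 46.6 CPM in CTCFfl/+ libraries. CTCFfl/fl replicate 2 was the highest of the 6, and the groups overlapped (log2 fold change -0.12, 95% interval -0.38 to 0.15, limma adjusted p = 0.53). Itgb3 (CD61) completes either the vitronectin receptor with Itgav or the platelet receptor for fibrinogen with Itga2b. It had 221.3, 220.7 and 162.8 CPM in CTCFfl/fl libraries, against 161.4, 121.2 and 129.3 CPM in CTCFfl/+ libraries. The groups were apart, though CTCFfl/fl replicate 3 and CTCFfl/+ replicate 1 nearly met, and the log2 fold change was 0.55 (SE 0.13, limma adjusted p = 0.016). The call ended without CTCFfl/fl replicate 1 (adjusted p = 0.051) and without CTCFfl/+ replicate 2 or 3 (0.064 and 0.066). Itga2b, its other alpha chain, averaged 2.49 ± 0.373 CPM in CTCFfl/fl and 2.07 ± 0.301 CPM in CTCFfl/+ libraries and was not called (limma adjusted p = 0.57).

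Itgb7 pairs with Itga4 to give the receptor for MAdCAM-1, used in homing to the gut. It had 10.05, 8.76 and 5.43 CPM in CTCFfl/fl libraries, against 4.45, 7.09 and 6.92 CPM in CTCFfl/+ libraries. CTCFfl/fl replicate 3 lay inside the CTCFfl/+ range, and the log2 fold change of 0.35 (95% interval -0.18 to 0.89) was not called (limma adjusted p = 0.34).

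Per kb of the principal transcript, the chains differed far more among themselves than between genotypes. In CTCFfl/fl CD3/CD28 libraries Itgb2 (68.1 CPM per kb) and Itgal (65.1) led with overlapping values, followed by Itgb1 (38.6) and Itgb3 (34.9), which overlapped too, and then Itga4 (12.8) and Itgav (6.10). Itgam (4.16) and Itgb7 (3.01) overlapped below these, and Itga3 (1.25) and Itgax (0.752) were lowest. In CTCFfl/+ libraries Itgal (59.5 CPM per kb) was above Itgb2 (52.7), Itgb1 (45.9), Itgb3 (23.7), Itga4 (9.71), Itgav (6.56) and Itgb7 (2.29), each apart from the next, and Itgam (1.12) came after Itgb7. Itga3 (0.447) and Itgax (0.426) overlapped at the bottom. Itgam thus stood in the seventh place by mean level in CTCFfl/fl libraries and in the eighth in CTCFfl/+ libraries, and the 2 chains with the highest called fold changes, Itgam and Itga3, were among the least abundant.

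In LPS/IL4 cultures none of the 10 chains passed the test with limma or with edgeR, where 0.0334% of 11962 genes tested did. At an unadjusted p under 0.05, 4 chains and 796 genes (6.65%) passed, and DESeq2 on the recovered reads called 1 chain, Itgb3. The median log2 fold change of the chains was -0.12, against -0.0013 for all genes. The genotypes were apart for 2 chains, Itgb3 and Itgal, both lower in CTCFfl/fl libraries, and for 11% of all genes.

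Itgb3 had 169.7, 138.5 and 125.7 CPM in CTCFfl/fl LPS/IL4 libraries, against 226.3, 190.8 and 182.2 CPM in CTCFfl/+ LPS/IL4 libraries. All CTCFfl/fl libraries were lower, with a log2 fold change of -0.47 (SE 0.11) and an adjusted p of 0.27 with limma and 0.039 with DESeq2. Itgal had 290.0, 326.0 and 308.0 CPM in CTCFfl/fl libraries, against 334.1, 389.4 and 351.4 CPM in CTCFfl/+ libraries (log2 fold change -0.22, limma adjusted p = 0.67). Itga3 had 4.54, 2.28 and 1.92 CPM in CTCFfl/fl libraries, against 5.58, 3.84 and 5.36 CPM in CTCFfl/+ libraries. CTCFfl/fl replicate 1 overlapped the CTCFfl/+ range, and the log2 fold change was -0.73 (95% interval -1.33 to -0.13, limma adjusted p = 0.63). Itga4 had 74.3, 118.9 and 92.7 CPM in CTCFfl/fl libraries, against 124.0, 141.7 and 104.3 CPM in CTCFfl/+ libraries, and also overlapped (log2 fold change -0.39, limma adjusted p = 0.62). Itgam had 9.92, 16.1 and 9.02 CPM in CTCFfl/fl libraries, against 7.50, 9.08 and 10.1 CPM in CTCFfl/+ libraries. The groups overlapped, with CTCFfl/fl replicate 2 alone above 10.1 CPM (log2 fold change 0.34, 95% interval -0.10 to 0.78, limma adjusted p = 0.86). Itgb1 (0.11), Itgb2 (0.07), Itgb7 (0.01), Itgax (-0.11) and Itgav (-0.14) had log2 fold changes between -0.14 and 0.11 and were not called.

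**Figure D3:**
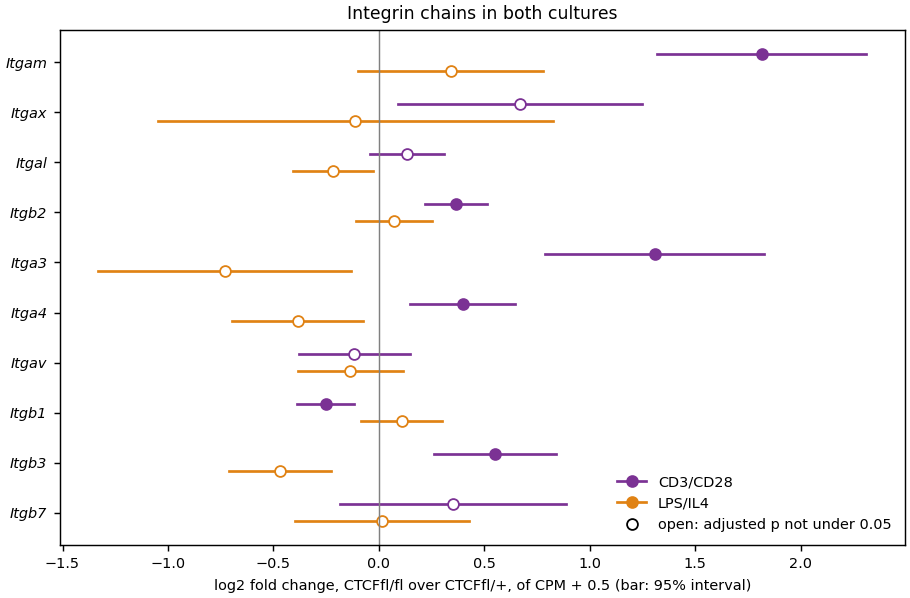
Log2 fold change of CTCFfl/fl over CTCFfl/+ (horizontal axis) for each chain in CD3/CD28 (purple) and LPS/IL4 (orange) cultures. Bars are 95% intervals, and filled points passed the test. Itgam (1.81) and Itga3 (1.31) lie farthest to the right in CD3/CD28 cultures, and no LPS/IL4 point is filled.

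The difference of the fold changes, CD3/CD28 minus LPS/IL4, was tested directly in 1 model of all 12 libraries. It was called for 5 of the 10 chains, where 7.57% of 11847 genes were called. Itga3 (2.04, SE 0.39, limma adjusted p = 0.0094), Itgam (1.47, SE 0.34, adjusted p = 0.020), Itgb3 (1.02, SE 0.20, adjusted p = 0.010) and Itga4 (0.78, SE 0.22, adjusted p = 0.046) had the more positive change in CD3/CD28 cultures. Itgb1 had the more negative one (-0.36, SE 0.10, adjusted p = 0.043). The calls for Itga4 and Itgb1 ended in 11 and 13 of 21 alternative analyses, and leaving out CD3/CD28 CTCFfl/fl replicate 2, CTCFfl/+ replicate 1 or CTCFfl/+ replicate 3, or LPS/IL4 CTCFfl/fl replicate 3, left 2 chains, while leaving out LPS/IL4 CTCFfl/+ replicate 1 or 2 left 3. Itgal (0.35), Itgb2 (0.29), Itgax (0.78), Itgb7 (0.34) and Itgav (0.02) were not called, so a different response of Itgb2 in the 2 cultures was not shown although it was called in only 1 of them. Without CD3/CD28 CTCFfl/fl replicate 3 or LPS/IL4 CTCFfl/fl replicate 2 the difference for Itgb2 passed (adjusted p = 0.038 and 0.046), and without CD3/CD28 CTCFfl/+ replicate 2 that for Itgal did (0.037). Culture and handling batch cannot be told apart here.

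Of 17 further integrin chain genes, 6 had a row and 5 were tested in CD3/CD28 cultures, none of them called. Among all genes tested there 18.6% were called, so no call among 5 genes sets them apart from other genes. Itgb5 (2.27 ± 0.811 CPM in CTCFfl/fl and 1.30 ± 0.465 CPM in CTCFfl/+ cells, log2 fold change 0.61, limma adjusted p = 0.21) and Itga10 (5.52 ± 1.51 and 4.05 ± 0.398 CPM in CTCFfl/fl and CTCFfl/+ cells, 0.37, adjusted p = 0.27) had the largest values. Itga6, a laminin receptor chain like Itga3, averaged 14.9 ± 1.42 CPM in CTCFfl/fl and 16.9 ± 0.715 CPM in CTCFfl/+ cells (log2 fold change -0.17, adjusted p = 0.32). Itga5, the fibronectin receptor chain, was at -0.09 (adjusted p = 0.84) and Itga2b at 0.22. In LPS/IL4 cultures all 6, with Itgb4, were tested, and none was called, where 0.0334% of all genes tested were.

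Of 29 listed integrin ligands 13 were tested in CD3/CD28 cultures, of which 3 were higher and 1 was lower in CTCFfl/fl cells. Over all genes tested there, 9.88% were higher and 8.76% lower. Icam2, a ligand of LFA-1, was the lower gene, with 13.5 ± 1.05 CPM in CTCFfl/fl and 20.2 ± 1.54 CPM in CTCFfl/+ cells (log2 fold change -0.56, limma adjusted p = 0.0083). Nid1, the basement membrane protein nidogen, averaged 19.1 ± 0.268 CPM in CTCFfl/fl and 10.4 ± 2.03 CPM in CTCFfl/+ cells (0.86, adjusted p = 0.0035). Col18a1 (1.05, adjusted p = 0.024) and Tgfb1, whose latent form binds Itgav integrins (0.21, adjusted p = 0.040), were the others. The Col18a1 call ended without CTCFfl/fl replicate 2 or CTCFfl/+ replicate 1 or 2 (adjusted p = 0.073 to 0.076), and the Tgfb1 call without any single library other than CTCFfl/fl replicate 3 (0.066 to 0.17).

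Among 28 tested genes that switch integrins on or off from inside the cell, 7 were higher and 1 was lower. The shares over all genes tested in CD3/CD28 cultures were 9.88% and 8.76%. Cytip, which binds cytohesin-1 and in this way limits LFA-1 adhesion, had 538.3 ± 65.1 CPM in CTCFfl/fl and 263.3 ± 26.0 CPM in CTCFfl/+ cells (log2 fold change 1.03, limma adjusted p = 0.00023). Sipa1 (0.25, adjusted p = 0.012) and Sipa1l1 (0.49, adjusted p = 0.0026), of a family that turns the activating GTPase Rap1 off, were higher, while Sipa1l3 of the same family was lower (-0.50, adjusted p = 0.014). The Sipa1 and Sipa1l3 calls each ended without CTCFfl/+ replicate 1 or 3 (adjusted p = 0.056 to 0.067). The other higher genes, named after their values were seen, were Cyth1, the binding partner of Cytip (0.23), Tln1, the talin that links beta chains to actin (0.19), Rapgef3, a Rap1 activator (1.00), and the adaptor Skap1 (0.98). Their adjusted p lay between 0.030 and 0.037, and leaving out any of 3 to 6 single libraries ended each call (adjusted p up to 0.15). Genes known to act for and against adhesion were thus among those higher. The median of the 28 was 0.04. In LPS/IL4 cultures none was called. Cytip stood there at 298.2 ± 72.1 CPM in CTCFfl/fl and 490.4 ± 20.2 CPM in CTCFfl/+ cells (-0.75, adjusted p = 0.092), and its fold changes differed between cultures by 1.77 (adjusted p = 0.00063).

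Of 36 tested genes of signalling from bound integrins, 10 were higher and 3 lower in CD3/CD28 cultures. All genes tested there had shares of 9.88% higher and 8.76% lower. The Src family kinases Fyn (95.3 ± 5.58 CPM in CTCFfl/fl and 64.0 ± 7.57 CPM in CTCFfl/+ cells, log2 fold change 0.58, limma adjusted p = 0.0027) and Lyn (275.9 ± 9.33 and 209.2 ± 14.1 CPM in CTCFfl/fl and CTCFfl/+ cells, 0.40, adjusted p = 0.0031) were among the higher genes, which also held Fgr of that family. Arhgef6, an exchange factor at adhesions (0.43, adjusted p = 0.0018), and Zyx, the adhesion protein zyxin (0.48, adjusted p = 0.0050), were higher too. The lower genes were Pak2, Git1 and Vav3, named like Fgr after their values were seen. The median of the 36 was 0.06. Of 13 tetraspanins and other integrin associates, Tspan32 was higher (38.6 ± 2.33 CPM in CTCFfl/fl and 27.2 ± 1.43 CPM in CTCFfl/+ cells, 0.50, adjusted p = 0.0047) and Tspan2 lower (33.9 ± 2.00 and 61.0 ± 6.38 CPM in CTCFfl/fl and CTCFfl/+ cells, -0.84, adjusted p = 0.00058). None of these genes was called in LPS/IL4 cultures. Fyn, Lyn, Fgr and other kinases of the list also serve B cell antigen receptor signalling.

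**Figure D4:**
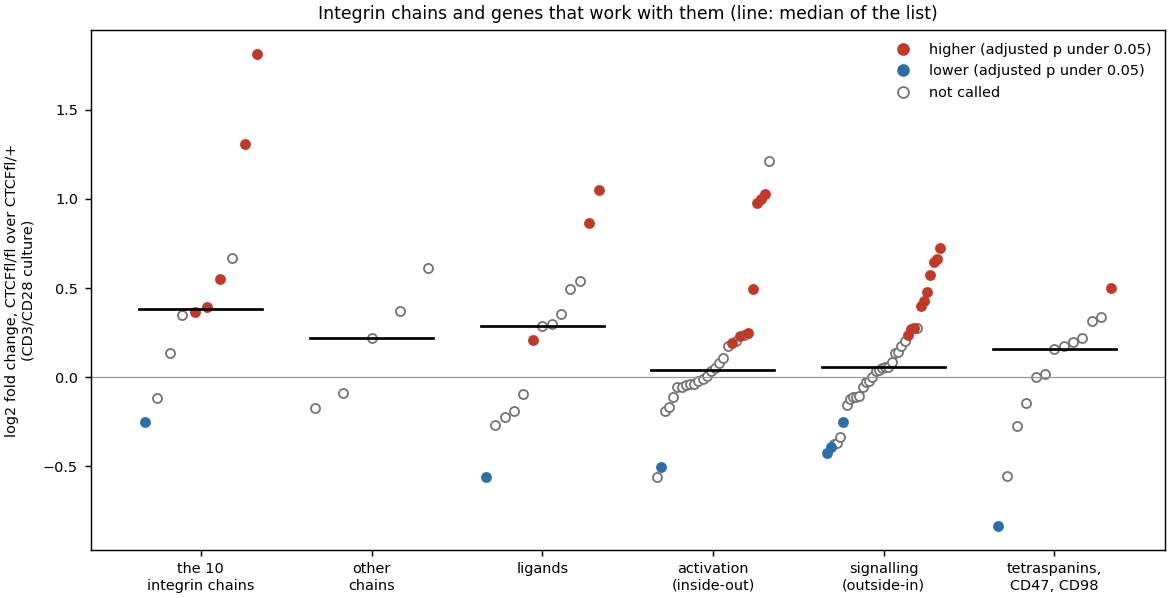
Log2 fold change of CTCFfl/fl over CTCFfl/+ in CD3/CD28 cultures (vertical axis) for the tested genes of 6 lists (horizontal axis). Red and blue points passed the test as higher and lower, open points did not, and lines are medians. The line of the 10 chains lies at 0.38, and those of activation and signalling genes at 0.04 and 0.06. Chains and lists were chosen with earlier results of these data known, so the lines do not test one list against another.

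The nearest tested gene on each side of the 10 chains gave 18 genes other than the chains, of which 4 were higher and 1 was lower in CTCFfl/fl cells of the CD3/CD28 cultures, and 13 were not called. The share of all genes tested that was called is 18.6%, and 3 of the 5 called neighbours, Pycard, Pdk2 and Cerkl, went the way of a called chain. Pdk2, 3120 bases from Itga3 on chromosome 11, averaged 5.77 CPM in CTCFfl/fl and 2.65 CPM in CTCFfl/+ cells (log2 fold change 0.99, limma adjusted p = 0.010). Cerkl overlaps Itga4 on the opposite strand of chromosome 2 and averaged 6.96 CPM in CTCFfl/fl and 4.31 CPM in CTCFfl/+ cells (0.62, adjusted p = 0.047). The libraries did not keep strand, so reads of Itga4 and Cerkl in their overlap, 7.16% of the 61-base stretches of Itga4 with all other genes counted, cannot be told apart. Itgav shares 5.29% of its 61-base stretches with Gm13684, which overlaps it on the opposite strand. Zfp768, 7657 bases from Itgal, was higher (0.64, adjusted p = 0.012) although Itgal was not called, and Mettl2, the next tested gene on 1 side of Itgb3 at 455949 bases, was lower (-0.46, adjusted p = 0.014). Both tested neighbours of Itgb1, Itgb2, Itgav and Itgb7 were not called, nor was the gene on the other side of Itga3 (Kat7), Itga4 (Ube2e3), Itgal (Sephs2) and Itgb3 (Myl4).

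Itgam and Itgax are widely used as marks of myeloid and dendritic cells, and Itgb3 and Itga2b as marks of platelets, so the other markers of these cells are given beside them. Of 14 myeloid markers 4 had a row (Lyz2, Csf1r, Cd14, Fcgr1, S100a8 and S100a9 had none), and their summed level was 18.9 to 19.6 CPM in CTCFfl/fl and 8.42 to 16.5 CPM in CTCFfl/+ libraries of the CD3/CD28 cultures. Tyrobp was the 1 of 3 tested that was called (4.70 ± 1.40 CPM in CTCFfl/fl and 1.30 ± 0.650 CPM in CTCFfl/+ cells, log2 fold change 1.57, limma adjusted p = 0.0099). The share of all genes tested there that was called is 18.6%. Cd68 averaged 12.1 ± 1.30 and 9.01 ± 1.88 CPM in CTCFfl/fl and CTCFfl/+ cells, with the groups apart, and was not called (0.42, adjusted p = 0.10). Fcer1g averaged 1.35 ± 0.461 and 0.905 ± 0.569 CPM in CTCFfl/fl and CTCFfl/+ cells and was not called either (0.44, adjusted p = 0.47). Of 8 dendritic cell markers 3 had a row and summed to 167.3 to 188.5 CPM in CTCFfl/fl and 118.3 to 132.1 CPM in CTCFfl/+ libraries. Without Flt3 the sum was lower in CTCFfl/fl libraries, at 80.4 to 100.2 CPM in CTCFfl/fl and 105.1 to 118.1 CPM in CTCFfl/+ libraries. Flt3 was higher (84.3 ± 5.65 and 13.7 ± 0.457 CPM in CTCFfl/fl and CTCFfl/+ cells) and Zbtb46 lower (8.79 ± 1.88 and 13.9 ± 1.41 CPM in CTCFfl/fl and CTCFfl/+ cells, limma adjusted p = 0.021), a call that ended without CTCFfl/fl replicate 2 or CTCFfl/+ replicate 2 or 3 (adjusted p = 0.054 to 0.090). Bst2, the third, averaged 82.9 ± 8.70 CPM in CTCFfl/fl and 99.6 ± 5.97 CPM in CTCFfl/+ cells, with the groups apart, and was not called (log2 fold change -0.27, limma adjusted p = 0.057). Of 7 platelet markers 2 had a row (Pf4, Ppbp, Gp9, Gp6 and Treml1 had none). They summed to 3.20 to 4.74 CPM in CTCFfl/fl and 2.58 to 3.66 CPM in CTCFfl/+ libraries, and neither was called.

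T cells, present in the CD3/CD28 co-culture among the added CD43+ cells, also express Itgal, Itgb2, Itga4 and Itgb1. The paper does not describe those added cells as T cells alone. The 15 T cell markers summed to 234.0 to 269.4 CPM in CTCFfl/fl and 196.1 to 213.9 CPM in CTCFfl/+ libraries, mostly from Lck, Cd2 and Thy1. Cd2 averaged 104.0 CPM in CTCFfl/fl and 58.0 CPM in CTCFfl/+ cells, and Thy1 averaged 13.9 and 35.0 CPM. Lck averaged 115.9 and 96.7 CPM, with the groups overlapping, and was not called (limma adjusted p = 0.078). A sum without Cd2 was not made, so the sums are not read as more T cell RNA in CTCFfl/fl libraries. Cd2 and Cd3g were higher and Thy1 was lower in CTCFfl/fl cells (log2 fold changes 0.84, 1.11 and -1.30, limma adjusted p = 9.5e-05, 0.027 and 0.0031), and the Cd3g call ended without any single library other than CTCFfl/fl replicate 3 (adjusted p = 0.060 to 0.086). Cd3d, Cd3e and Cd4 had 0 to 2 recovered reads in every CD3/CD28 library. In LPS/IL4 libraries, grown without added T cells, each had 0 or 1 read except for Cd3e in CTCFfl/fl replicate 1 (72 reads), Cd4 in CTCFfl/fl replicate 3 (68 reads) and in CTCFfl/+ replicate 3 (26 reads), and Cd3d in CTCFfl/+ replicate 2 (63 reads). With the culture means of the table nearly equal, the low values are not read as a measure of T cells in either culture. Of 8 natural killer cell markers 5 had a row and summed to 13.9 to 19.2 CPM in CTCFfl/fl and 9.91 to 12.2 CPM in CTCFfl/+ libraries, with Prf1 called higher (14.6 ± 2.84 and 7.84 ± 1.16 CPM in CTCFfl/fl and CTCFfl/+ cells, 0.85, adjusted p = 0.0078). Without Prf1 the sum was 2.07 to 2.49 CPM in CTCFfl/fl and 2.60 to 2.99 CPM in CTCFfl/+ libraries. Gzmb, the other marker tested, averaged 1.37 ± 0.345 and 1.78 ± 0.418 CPM in CTCFfl/fl and CTCFfl/+ cells (-0.29, adjusted p = 0.53), and Gzma, too low to be tested, 0.150 ± 0.0821 and 0.704 ± 0.400 CPM in CTCFfl/fl and CTCFfl/+ cells, with the groups apart. Nkg7 (0.399 and 0.150 CPM in CTCFfl/fl and CTCFfl/+ cells) and Klrk1 (0.388 and 0.189 CPM) were not tested either. For both of these the groups were apart as well, with CTCFfl/fl higher. Of 9 B cell markers 5 were called higher and none lower in CTCFfl/fl cells. Over all genes tested, 9.88% were called higher and 8.76% lower. The markers were led by Blk (210.2 ± 24.6 and 129.9 ± 9.95 CPM in CTCFfl/fl and CTCFfl/+ cells, 0.69, adjusted p = 0.0012), Cd79a (0.35, adjusted p = 0.0097), Cd22 (0.20, adjusted p = 0.030) and Cd79b (0.24, adjusted p = 0.034). The last 3 of these calls ended without CTCFfl/+ replicate 3 (adjusted p = 0.054, 0.11 and 0.16), and those of Cd22 and Cd79b also without CTCFfl/+ replicate 1 (0.14 and 0.10), while Cd22 ended too without CTCFfl/fl replicate 3 or CTCFfl/+ replicate 2, and Cd79b without CTCFfl/fl replicate 2. The part of any other cell type in the changes of the chains was not tested.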

How the data were processed

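Members and gene lists were chosen with earlier results of these data known. The deposited table holds normalised CPM per gene, which the authors made from single reads of 61 bases with CASAVA 1.8, Cutadapt, RSEM 1.17 against GRCm38 (Ensembl annotation) and edgeR. The labels and the paper's methods differ on some doses and on the age range, and the labels' values are given. IDs were named from GENCODE M21 (12586 of 12699 genes). Dividing each CPM value by the smallest step of its library gave a whole number (tolerance 0.01) for 100% of values, and these numbers were taken as recovered reads. They need not be the reads first counted, because the culture means were nearly equal. Total reads ran from 6934344 to 28130440 per library. Low transcripts rest on few recovered reads, and the precision of every gene rests on the spread of 3 libraries per group. No column was left out.

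Genes reaching 1 CPM in 3 or more libraries of the culture tested, out of 6, and in both cultures for the difference between them, were tested with limma 3.58.1 in R 4.3.3 on log2(CPM + 0.5), with an intensity trend, no replicate block and Benjamini-Hochberg adjustment over all genes. The study's count model was not used as the main test, since the unit is CPM. edgeR 4.0.16 and DESeq2 1.42.0 on recovered reads, other pseudocounts, filters and scalings, a replicate block, 1 fit of all libraries and leaving out each library were alternatives. Scripts were tested on simulated data. Named genes are all integrin chains and, of each other list, up to 4 called genes with the smallest adjusted p in CD3/CD28 cultures, and exceptions are stated. Each replicate is a sort from pooled cultures of 2 to 3 mice, and the paper calls the replicates independent. P-values measure the spread between these libraries. Levels per kb used the length of the APPRIS principal transcript. Promoters came from RefSeq, which had an entry for 7 of the 10 chains. Some genes are not reported here.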

Additional observations from a re-analysis of the deposited data

Results flagged for a closer look

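For 5 chains the change with genotype differed between the 2 cultures by the test of the difference itself (CD3/CD28 minus LPS/IL4, limma, 12 libraries). Itga3 differed by 2.04 on the log2 scale (SE 0.39, adjusted p = 0.0094), and Itgb3 by 1.02 (SE 0.20, adjusted p = 0.010). Itgam differed by 1.47 (SE 0.34, adjusted p = 0.020), Itga4 by 0.78 (SE 0.22, adjusted p = 0.046) and Itgb1 by -0.36 (SE 0.10, adjusted p = 0.043). The calls for Itga4, Itgb1 and Itgam ended in 11, 13 and 5 of 21 alternative analyses, and leaving out CD3/CD28 CTCFfl/fl replicate 2, CTCFfl/+ replicate 1 or CTCFfl/+ replicate 3, or LPS/IL4 CTCFfl/fl replicate 3, left 2 of the chains called. The cultures were separate batches, so culture and batch cannot be told apart.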

How the results depend on the processing

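In CD3/CD28 cultures Itgam, Itga3 and Itgb2 were called in every alternative that tested them. Without the intensity trend 1092 genes and 3 chains were called there, and leaving out 1 library gave 1006 to 2311 genes and 3 to 5 chains. In LPS/IL4 cultures the count of genes was 7 with a pseudocount of 1 CPM, 2 without a filter, 1 without the trend and 37 with DESeq2, which also called 1 chain, Itgb3, and it was 2 to 62 with 1 library left out. For the difference between cultures, 388 genes and 2 chains were called without the trend, 3 chains with edgeR, and 409 to 987 genes and 2 to 5 chains with 1 library left out. Itga3 kept that call in all 20 alternatives that tested it and Itgb3 in all 21, and Itgam lost it in 5 of 21. The cause of these shifts was not tested.

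Signs turned only where 1 library was left out, in values that were never called. These ran from -0.55 to 0.37 for Itgax and from -0.14 to 0.18 for Itgb7 in LPS/IL4 cultures, from -0.37 to 0.15 for Itga5 in CD3/CD28 cultures, and from -0.12 to 0.12 for Itgav in the difference.

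Deviations of same-numbered libraries had correlations of 0.06, -0.12 and -0.0019 in CD3/CD28 cultures and 0.37, 0.13 and -0.12 in LPS/IL4 cultures. Those of other-numbered libraries ran from -0.12 to 0.11 in CD3/CD28 cultures and from -0.34 to 0.28 in LPS/IL4 cultures. Deviations from a group's own mean sum to 0, so these values cannot show whether the numbers pair the libraries. With a replicate block 1870, 18 and 604 genes were called in the CD3/CD28, LPS/IL4 and difference tests, against 2250, 4 and 897 without it. The block left 6, 0 and 4 chains called, and Itgb1 was lost from the difference (limma adjusted p = 0.081). Itgax had 9 to 31 recovered reads per CD3/CD28 library, with an SD of 0.690 CPM in CTCFfl/fl and 0.380 CPM in CTCFfl/+ cells. In LPS/IL4 libraries it had 17 to 97 recovered reads, and the SD was 1.30 CPM in CTCFfl/fl and 1.43 CPM in CTCFfl/+ cells. Whether depth limits its precision was not tested.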
